A study of Mus musculus with 6 samples.

Results

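Chemokines are small secreted proteins that set the direction in which leukocytes migrate, and fibroblasts are among the stromal cells that make them. The family is named for the spacing of its first cysteines (CC, CXC and CX3C), and each ligand acts on G-protein-coupled receptors carried by subsets of immune cells. In the pancreas, chemokines of the stroma draw in monocytes, macrophages, T cells and neutrophils. A set of 10 chemokine genes often described in fibroblasts (Ccl2, Ccl5, Ccl7, Ccl11, Cxcl1, Cxcl5, Cxcl10, Cxcl12, Cxcl16 and Cx3cl1) was taken from the gene table by symbol, out of 14831 genes listed there. Rows were found for 9 of the 10, and Cxcl5, a neutrophil chemoattractant, was not analysed here because no row of the table carries its symbol.

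RNAseq was done on immortalized mouse pancreatic fibroblasts of mixed strain, grown to confluence in calf serum, in 3 wells whose genotype label is WT and 3 whose label is Gli2-/-;Gli3-/- (KO). The study describes such lines as outgrown from the pancreas of adult mice with floxed Gli alleles, immortalized, infected with a GFP adenovirus and a dsRed lentivirus (WT) or with GFP and Cre adenoviruses (KO), and sorted. Gli2 and Gli3 are transcription factors at the end of the Hedgehog pathway, and the comparison asks which transcripts differ when both are lost from fibroblasts. Whether each group is 1 clone is not given in the sources used here, so p-values measure the spread between wells and not between independently made lines.

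As a check of the labels, Gli2 had 809, 944 and 868 counts in the WT-labelled wells and 1932, 2316 and 1926 in the KO-labelled wells, and Gli3 had 392, 416 and 398 against 1434, 1637 and 1404. Both were higher in every library labelled KO (2.08-fold for Gli2 and 3.27-fold for Gli3, scaled for depth), which goes against the labels. A count over all exons would still include a transcript that lacks only the deleted part. Whether such a transcript was present was not tested. Gli1, a Hedgehog target named here after its values were seen, had 40, 50 and 37 counts against 4, 10 and 13. Because Gli2 and Gli3 go against them, the wells are named only by their label, WT-labelled or KO-labelled, and every direction below rests on those names. Whether the labels were exchanged before deposit was not tested. Were they exchanged, the sign of every fold change below would turn. Totals were 31728420 to 33905521 counts in the WT-labelled wells and 32781730 to 41035931 in the KO-labelled wells. Levels are in CPM, counts scaled to a common library size. Fibroblast markers were abundant as a sum in both groups (10 of 12 listed, summed level 44800 to 47300 CPM against 36800 to 38500), led by Col1a1 and Col1a2. Pdpn and Fap have no row, and Thy1 had 4, 1 and 0 counts against 19, 15 and 9. By the edgeR test given below, 9 were tested and 6 were called lower in the KO-labelled wells (28.8% of all tested genes). Dcn fell the most (-1.55 on the log2 scale), and S100a4 (1.67) was the 1 called higher (29.9%). Of 12 immune markers 5 were listed, at a summed 56.8 to 62.1 CPM in the WT-labelled wells and 53.4 to 55.5 in the KO-labelled wells, most of it Lyz2 and Cd14. The defining leukocyte markers Ptprc, Adgre1, Itgam and Cd3e have no row. Of 10 epithelial markers 5 were listed, at 20.2 to 22.7 CPM against 44.0 to 45.5. By the same test 4 were tested and 4 were called (58.7% of all tested genes). Krt7 (2.40 on the log2 scale), Cdh1 (1.08) and Cela1 (0.87) were higher (29.9%), and Sox9 (-0.50) was lower (28.8%). Of 7 endothelial markers only Vwf was listed, at 0.866 to 1.60 CPM against 0.763 to 0.939. The part of other cell types in the results below was not tested. In bulk RNA, fewer cells that make a transcript and less of it per cell cannot be told apart.

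The classes of the family can be read from the coding sequence. Each stretch below is 30 coding bases around the first cysteine pair, written 5′ to 3′ on the gene's strand from the GENCODE M21 transcripts (GRCm38), with the cysteine codons in capitals. One gene is shown for each way the 2 cysteines are spaced, together with the neighbours Ccl2 and Ccl7 and with Ccl11 and Ccl5, whose fold changes were the farthest from 0.
Ccl2: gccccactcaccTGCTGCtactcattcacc
Ccl7: aatgcatccacaTGCTGCtatgtcaagaaa
Ccl11: atcccaacttccTGCTGCtttatcatgacc
Ccl5: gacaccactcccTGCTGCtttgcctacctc
Cxcl12: agctaccgaTGCcccTGCcggttcttcgag
Cx3cl1: acgaaaTGCgaaatcatgTGCgacaagatg
The stretches lie at chr11:82036494-82036523 (Ccl2, plus strand), chr11:82046526-82046555 (Ccl7, plus), chr11:82061684-82061713 (Ccl11, plus), chr11:83529230-83529259 (Ccl5, minus), chr6:117171499-117171528 (Cxcl12, plus) and chr8:94778045-94778074 (Cx3cl1, plus), each inside 1 coding exon. The cysteine codons are adjacent in the CC genes, 1 codon apart in Cxcl12 and 3 codons apart in Cx3cl1. Aligned coding sequences of Ccl2 and Ccl7 were identical at 68.0% of 291 bases, and the longest run of identical bases that their transcripts share was 23 bases. Over the 10 genes, the longest run shared with any other chemokine on the lists was 25 bases, between Cxcl1 and Ccl9.

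Each fold change is KO-labelled over WT-labelled. Fold changes and p-values are those of edgeR (quasi-likelihood test), adjusted by Benjamini-Hochberg over all 14289 genes tested. An adjusted p under 0.05 was called, and a change of at least 1.5-fold (0.58 on the log2 scale) was counted beside it. Of the 9 chemokines 6 were called, where 58.7% of all tested genes were. Cx3cl1, Ccl7 and Cxcl12 were higher in the KO-labelled wells, where 29.9% of all tested genes were called higher. Ccl5, Ccl11 and Cxcl10 were lower, where 28.8% were called lower. Over all genes, 4277 were called higher and 4114 lower, or 5185 and 3284 with upper-quartile scaling. Ccl2, Cxcl1 and Cxcl16 were not called. With the 1.5-fold limit 4 remained, where 17.7% of all tested genes did: Cx3cl1, higher (11.6% of all tested genes), and Ccl5, Ccl11 and Cxcl10, lower (6.1%). In the same 6 genes the groups were apart in every well, where 64.2% of all tested genes were. The median log2 fold change was 0.09 over the 9 genes and 0.00 over all genes tested. A gene entered the test with at least 0.30 CPM in 3 libraries. Ccl5 and Ccl11 reached that level in 3 libraries labelled WT and in 0 labelled KO, and Cxcl10 in 3 and 2. Each of these genes thus entered through the group where it is high. The counts above and the p-values of Ccl5, Ccl11 and Cxcl10 are therefore a description.

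**Figure D1:**
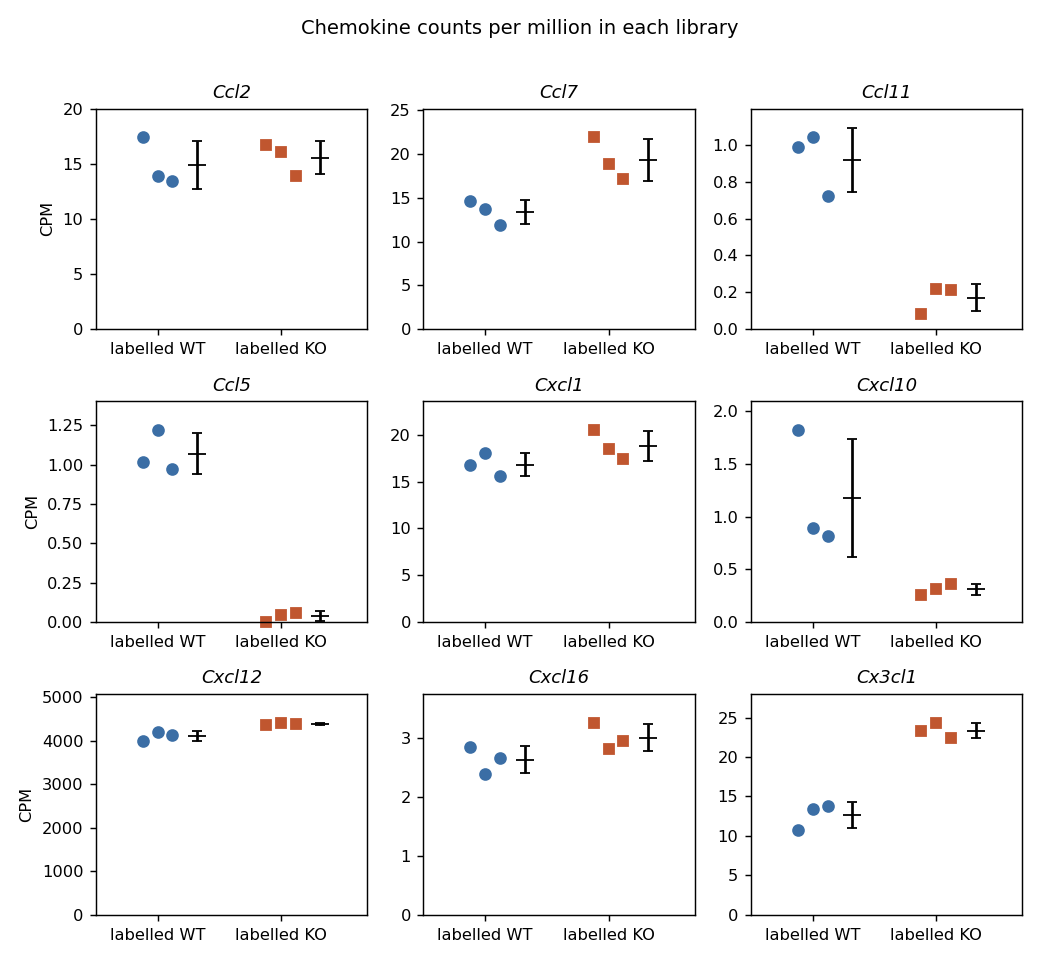
Counts scaled to CPM (vertical axes, each from 0) of the 9 chemokines in the 3 libraries labelled WT (circles) and the 3 labelled KO (squares), with the mean and SD of each group in black. The groups separate downward for Ccl5, Ccl11 and Cxcl10 and upward for Cx3cl1, Ccl7 and, by little, Cxcl12, and they overlap for Ccl2, Cxcl1 and Cxcl16.

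The monocyte chemoattractants Ccl2 and Ccl7 lie side by side on chromosome 11, Ccl2 from 82035571 to 82037453 and Ccl7 from 82045712 to 82047525 on the plus strand, 8258 bases apart. Both bind Ccr2, the receptor of inflammatory monocytes. Ccl2 had 546, 467 and 429 counts in the WT-labelled wells and 592, 669 and 458 in the KO-labelled wells, or 14.9 ± 2.17 and 15.5 ± 1.49 CPM (SD, n = 3 each). The library with the highest CPM was one labelled WT, and the ranges of the groups overlap. Ccl2 had a log2 fold change of 0.06 (95% interval -0.15 to 0.27, edgeR adjusted p = 0.600), an interval that leaves out a 1.5-fold change in either direction.

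Ccl7 had 459, 459 and 381 counts in the WT-labelled wells and 777, 788 and 565 in the KO-labelled wells, or 13.4 ± 1.38 and 19.3 ± 2.44 CPM (SD, n = 3 each). The lowest library labelled KO, at 17.1 CPM, was above the highest labelled WT, at 14.6. Ccl7 had a log2 fold change of 0.53 (SE 0.09, edgeR adjusted p = 3.40e-04), or 1.44-fold, below the 1.5-fold limit. Leaving out any 1 well gave 0.42 to 0.60.

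Set against each other within a library, which needs no scaling for depth, the 2 neighbours parted. Ccl7 had 0.841, 0.983 and 0.888 counts for each Ccl2 count in the WT-labelled wells and 1.31, 1.18 and 1.23 in the KO-labelled wells, a ratio of 0.904 ± 0.0724 and 1.24 ± 0.0676 (SD, n = 3 each). Ccl2 was thus the more counted of the pair in every library labelled WT, and Ccl7 in every library labelled KO. These counts are not scaled for length, and Ccl2 has 1138 exon bases against 801 for Ccl7. Per kilobase of exon, Ccl7 was the higher in every library labelled WT too, at 18.3, 17.1 and 14.9 CPM against 15.3, 12.3 and 11.8. The ratio differed between the groups by 0.46 on the log2 scale, with a two-sided exact permutation p of 0.1, the smallest that 3 libraries against 3 allow. This ratio was chosen after the values were seen.

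Ccl11 (eotaxin, an attractant of eosinophils through Ccr3) is the next of these genes along chromosome 11, 10297 bases past Ccl7, from 82057823 to 82062955. It had 31, 35 and 23 counts in the WT-labelled wells and 3, 9 and 7 in the KO-labelled wells, or 0.989, 1.04 and 0.720 CPM against 0.0847, 0.216 and 0.212. The groups do not overlap, and the library with the fewest counts is at the floor of 3 counts. Ccl11 had a log2 fold change of -2.39 (SE 0.33, edgeR adjusted p = 4.55e-05). Summed over the wells, 89 counts stood against 19, a depth-scaled ratio of 5.33 with an exact 95% binomial interval of 3.22 to 9.27 that covers counting error only. These 3 neighbouring ligand genes thus gave 3 outcomes, with Ccl2 not called, Ccl7 higher and Ccl11 lower.

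Ccl5 (RANTES, which draws T cells, NK cells and monocytes) lies apart from that cluster, on the minus strand of chromosome 11 from 83525778 to 83530518. Counts of Ccl5 were 32, 41 and 31 in the WT-labelled wells and 0, 2 and 2 in the KO-labelled wells, or 1.02, 1.22 and 0.971 CPM against 0.00, 0.0480 and 0.0606. Every library labelled KO was below the floor of 3 counts, which is 0.0720 to 0.0909 CPM there. Summed over the wells, 104 counts stood against 4, a depth-scaled ratio of 29.6 with an exact 95% binomial interval of 11.2 to 111. The edgeR adjusted p of Ccl5 was 1.11e-06.

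Cxcl10 (IP-10), an interferon-induced ligand of Cxcr3 on activated T cells and NK cells, lies on chromosome 5 from 92346638 to 92348889 on the minus strand. It had 57, 30 and 26 counts in the WT-labelled wells and 9, 13 and 12 in the KO-labelled wells, or 1.82, 0.896 and 0.814 CPM against 0.254, 0.312 and 0.364. The first library labelled WT stood well above the other two, while the lowest of them, at 0.814 CPM, was still above the highest labelled KO. The log2 fold change of Cxcl10 was -1.91 (SE 0.36, edgeR adjusted p = 5.63e-04), and it was -1.46 without the first library labelled WT. Of the Cxcl10 exons 5.91% overlap Art3 on the opposite strand, and whether reads were counted by strand is not given in the sources used here.

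Promoter sequences (RefSeq, GRCm38.p6) were held for 4 of the 10 genes, Cxcl1, Cxcl10, Cxcl12 and Cx3cl1. The 250 bases before the start are printed for Cxcl10, the one of the 4 that was lower in the KO-labelled wells, and for Cxcl12, the most abundant. Capitals mark matches, on either strand, to the core of the interferon-stimulated response element (GAAA, any 2 bases, GAAA) and to a loose NF-kB pattern (GGG, any 5 bases, CC).
Cxcl10, chr5:92348890-92349139, minus strand: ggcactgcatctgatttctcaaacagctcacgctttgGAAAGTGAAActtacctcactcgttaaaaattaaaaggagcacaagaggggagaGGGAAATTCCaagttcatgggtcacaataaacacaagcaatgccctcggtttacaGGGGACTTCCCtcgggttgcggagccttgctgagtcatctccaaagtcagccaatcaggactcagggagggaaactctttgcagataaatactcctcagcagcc
Cxcl12, chr6:117168285-117168534, plus strand: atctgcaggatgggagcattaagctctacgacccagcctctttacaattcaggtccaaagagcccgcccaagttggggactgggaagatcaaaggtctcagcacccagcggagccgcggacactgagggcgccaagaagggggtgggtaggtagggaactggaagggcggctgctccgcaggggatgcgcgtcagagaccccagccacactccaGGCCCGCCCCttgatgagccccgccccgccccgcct
The interferon element core was found in Cxcl10 alone of the 4, from 213 to 204 bases before the start, and 2.98% of 32851 promoter windows of this length held it. The NF-kB pattern was found in Cxcl10 (from 159 to 150 bases, and as overlapping matches from 104 to 94), in Cxcl1 and in Cxcl12, but 45.8% of all windows held it. The same windows of these 4 genes held no match to the GLI consensus GACCACCCA (0.225% of all windows) or to the STAT pattern TTCNNNGAA (7.02%). A match is a stretch of letters and not evidence of binding.

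Cxcl1 (KC, a neutrophil attractant through Cxcr2) lies on chromosome 5 from 90891241 to 90893115. It had 525, 607 and 497 counts in the WT-labelled wells and 727, 773 and 573 in the KO-labelled wells, or 16.8 ± 1.28 and 18.8 ± 1.60 CPM (SD, n = 3 each). The highest library labelled WT, at 18.1 CPM, lay above the lowest labelled KO, at 17.4. The log2 fold change of Cxcl1 was 0.16 (95% interval 0.00 to 0.32, edgeR adjusted p = 0.0745). In the same test it passed with upper-quartile scaling (0.22, adjusted p = 0.0216) and total-count scaling (0.20, adjusted p = 0.0352). It did not pass with RLE scaling (0.16, adjusted p = 0.0782). Cxcl1 also passed without either of 2 libraries (0.22 without the second labelled WT, 0.21 without the third labelled KO).

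Cxcl12 (SDF-1), which holds and guides Cxcr4-bearing lymphocytes and progenitors and is a standard product of mesenchymal cells, lies on chromosome 6 from 117168535 to 117181367. Its counts were 124954, 140821 and 132307 in the WT-labelled wells and 154225, 183933 and 144661 in the KO-labelled wells. Cxcl12 alone took 0.394% to 0.415% of all gene counts in the first group and 0.441% to 0.448% in the second. At 4110 ± 112 and 4380 ± 29.2 CPM (SD, n = 3 each), the groups did not overlap, yet the step from the highest library labelled WT (4200) to the lowest labelled KO (4360) was small. The log2 fold change of Cxcl12 was 0.09 (95% interval 0.03 to 0.15, edgeR adjusted p = 0.0109), or 1.07-fold, and the call was lost without the second library labelled KO (adjusted p = 0.0627).

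Cxcl16 and Cx3cl1 are the 2 chemokines of the family that are made as membrane-anchored proteins on a mucin-like stalk and released by proteases. Cxcl16, the ligand of Cxcr6 on T cells and NKT cells, lies on chromosome 11 from 70453983 to 70459984 on the minus strand. It had 89, 80 and 85 counts against 115, 117 and 97, or 2.63 ± 0.227 and 3.0 ± 0.226 CPM (SD, n = 3 each), and the groups overlap. Cxcl16 had a log2 fold change of 0.19 (95% interval -0.08 to 0.46, edgeR adjusted p = 0.215). Of its exons 18.27% overlap Zmynd15 on the opposite strand.

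Cx3cl1 (fractalkine, the ligand of Cx3cr1 on monocytes, macrophages and NK cells) lies on chromosome 8 from 94772009 to 94782427. It had 339, 448 and 440 counts in the WT-labelled wells and 826, 1011 and 741 in the KO-labelled wells, or 10.8, 13.4 and 13.8 CPM against 23.3, 24.3 and 22.4. Every library labelled KO was far above every library labelled WT. Cx3cl1 had a log2 fold change of 0.88 (SE 0.08, edgeR adjusted p = 7.34e-07), or 1.84-fold, and leaving out any 1 well gave 0.78 to 0.94. By the labels, Cx3cl1 was the one chemokine of the 9 that was higher by more than the fold limit, and with the labels exchanged Ccl5, Ccl11 and Cxcl10 would be higher and Cx3cl1 lower.

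**Figure D2:**
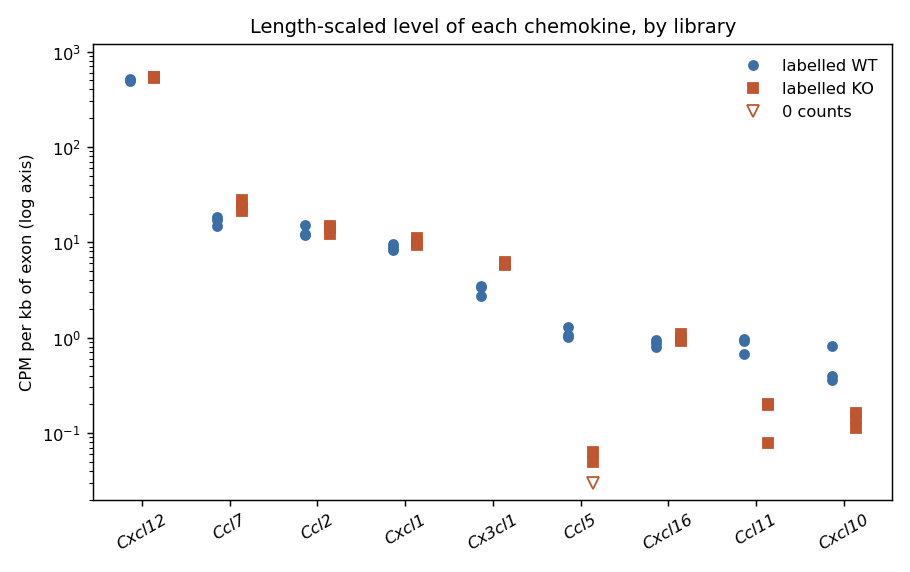
Level of each chemokine in CPM per kilobase of annotated exon (log axis) in the 3 libraries labelled WT (circles) and the 3 labelled KO (squares), ordered by the mean in the WT-labelled wells. Cxcl12 lies between 488 and 540, Ccl7, Ccl2, Cxcl1 and Cx3cl1 between 2.75 and 27.4, and the open triangle marks the library in which Ccl5 had 0 counts.

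Levels can be compared between genes once divided by exon length. On the scale of CPM per kilobase of exon, Cxcl12 averaged 503 ± 13.7 in the WT-labelled wells and 536 ± 3.57 in the KO-labelled wells (SD, n = 3 each). The next gene, Ccl7, averaged 16.8 ± 1.72 and 24.1 ± 3.05 on the same scale. Ccl2 followed with 13.1 ± 1.91 and 13.7 ± 1.31, then Cxcl1 with 8.97 ± 0.682 and 10.0 ± 0.855, and Cx3cl1 with 3.22 ± 0.409 and 5.94 ± 0.231. The first 5 places were held by these genes in the same order in both groups. Ccl7 and Ccl2 overlapped in the WT-labelled wells and were apart in the KO-labelled wells.

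Below them, Ccl5 was sixth in the WT-labelled wells with 1.12 ± 0.140 CPM per kilobase, followed by Cxcl16 (0.871 ± 0.0753), Ccl11 (0.849 ± 0.160) and Cxcl10 (0.522 ± 0.248). Cxcl16 overlapped Ccl11, and Ccl11 overlapped Cxcl10. In the libraries labelled KO, Cxcl16 was sixth with 0.992 ± 0.0748 CPM per kilobase, Ccl11 (0.158 ± 0.0690) and Cxcl10 (0.138 ± 0.0243) overlapped, and Ccl5 was last with 0.0377 ± 0.0333. Exon length was the union of all annotated exons, which for Cxcl12 is 8176 bases. With its longest transcript (5627 bases) its level over the 6 libraries was 755 CPM per kilobase.

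Of the counts on the 9 genes together, Cxcl12 made up 98.36% to 98.58% in the WT-labelled wells and 98.06% to 98.33% in the KO-labelled wells (exact 95% binomial intervals within 98.29% to 98.64% and 97.99% to 98.40%). Per kilobase, its share was 90.9% to 92.4% and 89.8% to 91.5%. The remaining 8 genes had 1912 to 2167 counts in a library labelled WT and 2455 to 3382 in one labelled KO. Among those, Cx3cl1 held 16.3% to 23.0% in the first group and 27.1% to 30.2% in the second, and Ccl2 held 21.6% to 26.3% and 18.7% to 19.8%. Ccl5, Ccl11 and Cxcl10 each held 1.20% to 2.74% in the WT-labelled wells and at most 0.489% in the KO-labelled wells.

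**Figure D3:**
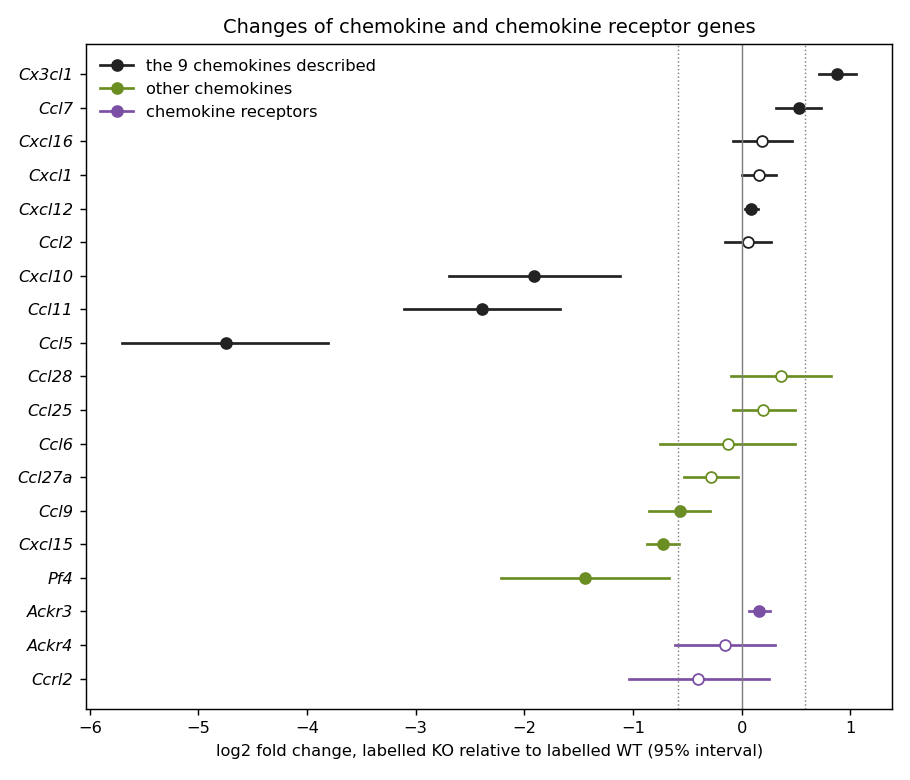
Log2 fold change (labelled KO relative to labelled WT, horizontal axis) with its 95% interval for the 9 chemokines described, 7 other chemokines and 3 chemokine receptors, filled where the adjusted p was under 0.05. Dotted lines mark a 1.5-fold change. Ccl5, Ccl11, Cxcl10, Pf4 and Cxcl15 lie past it to the left and Cx3cl1 to the right.

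Beside these, 30 further chemokine genes were listed, of which 7 had a row and were tested. Of the 7, 3 were called (58.7% of all tested genes), all lower in the KO-labelled wells (28.8%), and 2 of them passed the fold limit (17.7%). Cxcl15 (lungkine, a neutrophil attractant) had 469, 523 and 535 counts against 345, 380 and 327, a log2 fold change of -0.72 (SE 0.07, edgeR adjusted p = 1.30e-06). Pf4 (platelet factor 4, Cxcl4) had 18, 36 and 16 counts against 9, 10 and 10, a log2 fold change of -1.44 (SE 0.36, edgeR adjusted p = 0.00369). Pf4 reached the filter level in 3 libraries labelled WT and 1 labelled KO, so that it too entered the test through the group where it is high, and the count of 3 is a description. Ccl9, a ligand of Ccr1, had 155, 153 and 132 counts against 94, 148 and 96, a log2 fold change of -0.57 (SE 0.13, edgeR adjusted p = 0.00202). Ccl27a (-0.28), Ccl6 (-0.13), Ccl25 (0.20) and Ccl28 (0.36) were not called. The median log2 fold change of the 7 was -0.28. Cxcl9 and Cxcl11, which also bind Cxcr3, have no row in the table, so that Cxcl10 is the only one of these 3 measured here.

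Of 23 chemokine receptor genes 3 had a row, all of them atypical or scavenging receptors and none a signalling receptor for the 10 ligands. Ackr3, which takes up Cxcl12, had 1347, 1557 and 1366 counts in the WT-labelled wells and 1776, 2091 and 1571 in the KO-labelled wells, or 44.1 ± 2.08 and 49.3 ± 1.49 CPM (SD, n = 3 each). Its groups did not overlap, and the log2 fold change of Ackr3 was 0.16 (SE 0.04, edgeR adjusted p = 0.00619). Ackr4 (-0.15) and Ccrl2 (-0.40), both at under 1 CPM, were not called.

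Of 10 genes for enzymes that shed or trim chemokines and for their regulators, 9 were tested and 5 were called (58.7% of all tested genes), 1 higher (29.9%) and 4 lower (28.8%). The split was 3 higher and 3 lower with upper-quartile scaling, 2 and 4 with total-count scaling, and 2 and 3 with at least 10 counts in each well. Adam10 and Adam17, the sheddases that release Cx3cl1 and Cxcl16 from the membrane, were not called. The log2 fold change of Adam10 was -0.04 (95% interval -0.10 to 0.02) and that of Adam17 was 0.04 (-0.04 to 0.12), against 0.88 (0.71 to 1.05) for their substrate Cx3cl1. Timp3, an inhibitor of these proteases, rose from 2630 ± 31.3 to 3970 ± 23.2 CPM (SD, n = 3 in each group) with a log2 fold change of 0.59 (edgeR adjusted p = 7.19e-10). Rhbdf2 and Rhbdf1, the iRhoms that bring Adam17 to the cell surface, had log2 fold changes of -0.34 and -0.13. Mmp14, a membrane protease that can cut chemokines, had one of -0.40. Mmp9 was the fifth gene called, at 19, 18 and 18 counts against 8, 7 and 10, and it reached the filter level in 3 libraries labelled WT and 1 labelled KO, so that it entered the test through the group where it is high.

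**Figure D4:**
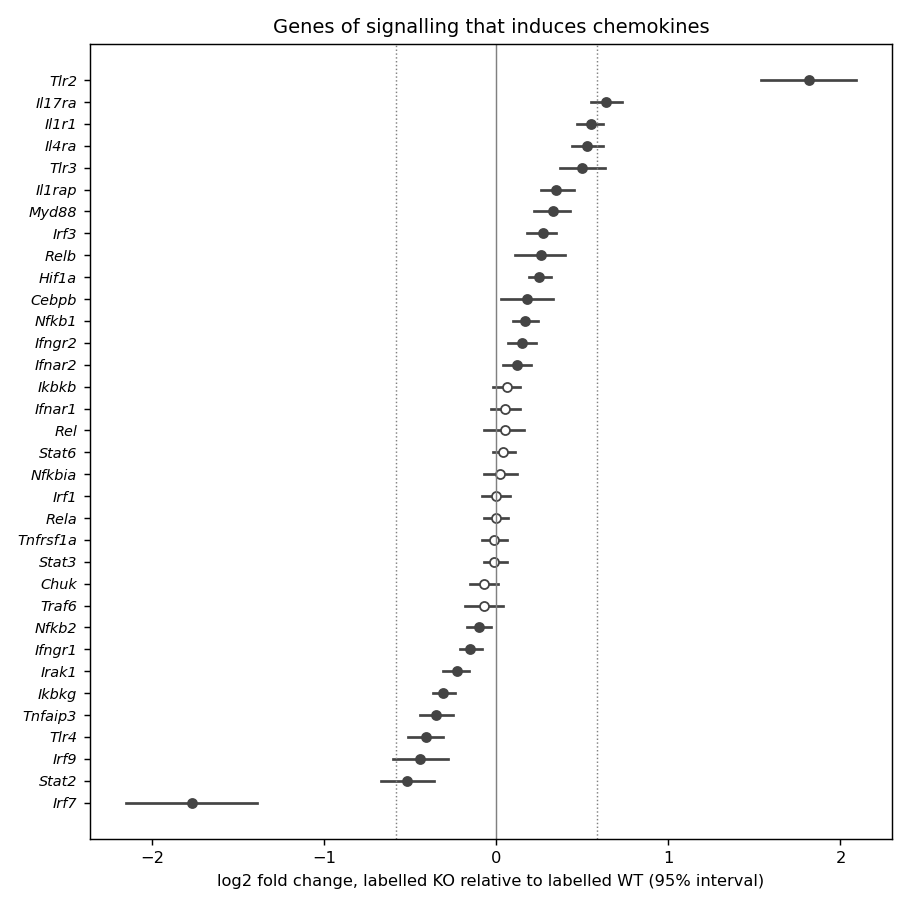
Log2 fold change (labelled KO relative to labelled WT, horizontal axis) with its 95% interval for genes of the signalling that induces chemokines, filled where the adjusted p was under 0.05, with dotted lines at a 1.5-fold change. Most lie between the lines, with Tlr2 and Il17ra beyond the right one and Irf7 beyond the left one.

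A list of 35 genes of the signalling that turns chemokine genes on (among them NF-kB, interferon, interleukin 1, interleukin 17 and Toll-like receptor genes) was tested in full. Of these, 24 were called (58.7% of all tested genes), 14 higher (29.9%) and 10 lower (28.8%). The fold limit was passed by 3 (17.7%), and the median log2 fold change was 0.04. Tlr2, a receptor for bacterial lipoproteins, had 52, 60 and 76 counts in the WT-labelled wells and 227, 298 and 230 in the KO-labelled wells, a log2 fold change of 1.82 (SE 0.13, edgeR adjusted p = 9.35e-08). Il17ra, the receptor chain for interleukin 17, rose from 38.5 ± 1.67 to 60.1 ± 1.21 CPM (SD, n = 3 each), which is 0.64 on the log2 scale. Il1r1, the interleukin 1 receptor, rose from 56.9 ± 1.29 to 83.1 ± 1.81 CPM, a log2 fold change of 0.55.

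Irf7, a transcription factor of the interferon response, went the other way, with 318, 261 and 421 counts against 101, 120 and 112 and a log2 fold change of -1.77 (SE 0.17, edgeR adjusted p = 2.07e-06). The following genes were picked from the list after its values were seen. Among other interferon-pathway transcription factors, Stat2 (-0.52) and Irf9 (-0.44) were lower in the KO-labelled wells, Irf3 (0.27) was higher and Irf1 (0.00, adjusted p = 0.989) was not called. Of the 5 NF-kB subunits, Relb (0.26) and Nfkb1 (0.17) were higher, Nfkb2 (-0.10) was lower, and Rel (0.05) and Rela (0.00, 95% interval -0.07 to 0.07) were not called. Whether these genes have a part in the changes of the chemokines was not tested.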

How the data were processed

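RNAseq counts of 6 libraries, in 2 groups of 3 wells taken from the genotype labels, were analysed. The authors deposited raw counts of reads per gene without normalization, and log2 CPM values made by voom in limma. The submitters' processing notes name STAR 2.7.2b, featureCounts, limma and the build GRCm38.p6. The strand setting of the counting is not given in the sources used here. Positions and exon lengths are from GENCODE M21 (GRCm38), which holds 14822 of the 14831 gene identifiers. Symbols are those of the table, which gives 13666, and GENCODE's elsewhere (here Ccl6, Ccl28, Pf4 and Mmp9).

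The test was run in edgeR 4.0.16 (R 4.3.3; TMM scaling, filterByExpr with a minimum count of 10, quasi-likelihood F test, Benjamini-Hochberg over 14289 genes). CPM use TMM-scaled library sizes, and 3 counts correspond to 0.0720 to 0.0957 CPM. Standard errors and intervals were computed from the fold change and its F statistic. The test was checked on simulated counts. Pairs of libraries within a group differed by more than sampling noise (chi-square per degree of freedom 2.47 to 7.53), so all were kept. Intervals on counts cover counting error only.

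The chemokines and all gene lists were chosen with earlier results of these data known. The genes named are the 10 chemokines, every tested gene of the lists of other chemokines and receptors, up to 4 genes each of the other 2 lists (largest changes called, and no fewer than 100 counts in each well of the group with more), and the 3 genes most like the most abundant chemokine. Adam10, Adam17, Mmp9, Gli1, the markers and the transcription factors are named outside that rule. Some items of the gene lists are not reported here. Alternatives were scaling by RLE, by upper quartile or by total counts, other filters, glmTreat, DESeq2 1.42.0, limma 3.58.1 on the counts and on the deposited log2 values, and leaving out each library.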

Additional observations from a re-analysis of the deposited data

How the results depend on the processing

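No paired analysis was possible because the labels give the wells no shared numbers. The number of chemokines called was 5 to 7 when any 1 well was left out and 6 or 7 under the other alternatives run, except that it was 3 with a minimum of 10 counts in each well, since Ccl5, Ccl11 and Cxcl10 were then not tested, and 4 with edgeR's glmTreat against a 1.5-fold change. Under glmTreat 1704 genes were called in all where the quasi-likelihood test called 8391, 1 of the other chemokines, 0 of the receptors, 1 of the processing genes and 2 of the signalling genes, and the calls of Ccl7 (0.53, adjusted p = 1.00) and Cxcl12 (0.09, adjusted p = 1.00) were lost. Cxcl1 passed with upper-quartile (0.22, adjusted p = 0.0216) and total-count scaling (0.20, adjusted p = 0.0352), and not with RLE scaling (0.16, adjusted p = 0.0782). The median log2 fold change over all genes was 0.059 with upper-quartile scaling, 0.037 with total-count scaling and 0.002 in the main test. Leaving out a library moved the log2 fold change of Cxcl1 between 0.09 and 0.22 and that of Cxcl12 between 0.07 and 0.11. Ccl2 ranged from -0.01 to 0.18 in the same way, changing sign without the third library labelled WT, and was called in none of the alternatives. Across all alternatives that tested them, Ccl5 stayed between -5.19 and -4.24, Ccl11 between -2.62 and -2.09, Cxcl10 between -2.11 and -1.46 and Cx3cl1 between 0.78 and 0.94, all with an adjusted p under 0.05. In the main test Ccl5, Ccl11 and Cxcl10 passed the filter through the group where they are high, so their values are a description. With the longest transcript as length, the mean level over the 6 libraries was 0.830 CPM per kilobase for Ccl5, 755 for Cxcl12, 1.04 for Cxcl16 and 5.43 for Cx3cl1. At around 1 CPM in the higher group, Ccl5, Ccl11 and Cxcl10 rest on 23 to 57 counts in each library labelled WT. Ccl5 had 0, 2 and 2 counts in the libraries labelled KO, and the alternatives reuse these counts. Its counting interval, a ratio of 11.2 to 111, is wider than the range over the alternatives.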

Other observations

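The genes whose pattern was most like that of Cxcl12, the most abundant of the chemokines, were sought among 10518 genes that had 100 counts or more in each well. Likeness was the root mean square difference over the 6 libraries between log2 CPM profiles, each centred on its own mean. The closest were Serinc3 (0.00564), Mob1a (0.00721) and Snapin (0.00838), each with a log2 fold change of 0.09. That shared value follows from the way the genes were chosen and is a description only. Serinc3 averaged 450 and 477 CPM, Mob1a 198 and 211, and Snapin 57.6 and 61.3 in the libraries labelled WT and labelled KO.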
